A study of Homo sapiens with 8 samples.

Results

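Reh cells, an established human B-lymphoid precursor line, were profiled on 8 Affymetrix U133 Plus 2.0 arrays, and the comparison described here sets the 4 arrays whose titles end in 2 against the 4 whose titles end in 1. All 8 of the 8 arrays of the series enter it, as 1 pair within each of 4 transfections. The transfections were a control shRNA construct (titled mock), an shRNA against the transcriptional corepressor CBFA2T3, a constitutively active variant of IκB kinase β called IKKβ(EE), and the CBFA2T3 shRNA together with IKKβ(EE), written "both" from here on. Per the labels both the knockdown and the IKKβ(EE) expression were transient, so a culture can hold transfected and untransfected cells, and all groups are 1 line with no untransfected sample. The design text traces the line to acute lymphoblastic leukemia, whereas the sample labels give non-Hodgkin lymphoma as the malignancy. The labels name the arrays of a group as biological replicates and do not say what a replicate number stands for or whether arrays with the same number shared a day or a culture, so p-values measure the spread between these arrays.

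Cultured lymphoid cells shift their transcripts with growth state. Growing cells make ribosomes, nucleotides and replication proteins, in large part under the transcription factor MYC and the E2F factors. Cells short of oxygen stabilise the HIF factors, which bind the sequence ACGTG, cells short of amino acids or with misfolded protein translate ATF4, and cells with low growth factor signalling free the FOXO factors, which drive genes of quiescence.

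On arrays numbered 2, 13 of 23 tested genes of the hypoxia response, 14 of 23 FOXO and quiescence genes, 12 of 26 immediate early genes and 10 of 27 ATF4 stress targets were called higher. Called lower were 18 of 43 genes of MYC and ribosome biogenesis, 6 of 24 of nucleotide synthesis and 8 of 51 of DNA replication. The differences were log2 changes fitted by limma with the transfection and the replicate number as terms, on the authors' RMA log2 intensities, and a probe set was called under a Benjamini-Hochberg adjusted p of 0.05. Of 24481 tested probe sets 2180 were called (8.9%), 1273 of them higher (5.2%) and 907 lower (3.7%) on arrays numbered 2. Counting each gene once, through its brightest probe set, 953 of 11449 genes were called (8.32%), 610 higher (5.33%) and 343 lower (3%). The called rises were larger than the called falls. The median rise was 0.47 and the median fall -0.40, and 35 rises but 0 falls passed 2-fold. The largest fall was -0.90, and the median standard error (SE) was 0.0845 on the log2 scale. The 4 arrays numbered 2 lay wholly above the 4 numbered 1 for 415 genes (3.62%) and wholly below for 432 (3.77%). Of the variance over tested probe sets, 73.2% lay between transfections, 15.9% between the replicate numbers and 11% in the remainder.

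The counts depended on single pairs. Without the CBFA2T3 shRNA pair limma called 0 probe sets, with 6606 at an unadjusted p under 0.05 and a smallest adjusted p of 0.0511, so each list count given below was 0 without that pair. Without the control pair it called 818, without the IKKβ(EE) pair 73 and without the pair with both 333. A comparison of the 4 arrays numbered 2 with the 4 numbered 1 that left the transfection out called 0, with 2995 probe sets at an unadjusted p under 0.05.

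The pairs also differed in size. The SD of the difference between numbers 2 and 1 over tested probe sets was 0.269 for the control pair, 0.265 for the CBFA2T3 shRNA pair, 0.303 for the IKKβ(EE) pair and 0.369 for the pair with both. In the same order 79, 110, 203 and 474 probe sets differed by over 2-fold. A test of whether the replicate difference depended on IKKβ(EE) called 0 probe sets in limma, with 1320 at an unadjusted p under 0.05 and a smallest adjusted p of 0.120. The same test for the CBFA2T3 shRNA called 0, with 1667 at an unadjusted p under 0.05. In simulated data the IKKβ(EE) test recovered 0% of changes of log2 0.5 and 0% of log2 1. The CBFA2T3 shRNA test was not simulated. These counts of 0 therefore cannot show that the replicate difference was alike across transfections.

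The targeted genes and the markers of the cell type were checked on both sets of arrays. In each sentence that follows, 4 values stand in the order control, CBFA2T3 shRNA, IKKβ(EE), both. CBFA2T3 was 9.22, 8.40, 8.91 and 8.23 on arrays numbered 1 and 9.29, 8.11, 8.89 and 7.83 on arrays numbered 2. It was lowest in the transfections with its shRNA and did not pass the test between the numbers (-0.16, SE 0.096, limma adjusted p = 0.301). The 1 of 3 IKBKB probe sets that is high where IKKβ(EE) was transfected was 10.85 and 11.45 in the IKKβ(EE) and both transfections numbered 1 and 10.39 and 11.97 in those numbered 2, against 3.97 and 4.02 in the control arrays. Of 33 listed genes of B-lymphoid precursors 31 were tested. Between the numbers 1 of them, CD9, was called higher and 0 lower, against 5.33% and 3% of all genes. The list median was 0.02. The mean levels were 13.5 for DNTT, which adds bases at antigen receptor joints, 12.3 for EBF1, 12.2 for PAX5 and 9.64 for CD79A, while VPREB1 was close to background at 3.22. The summed level of the list was 16.24 to 16.37 on arrays numbered 1 and 16.09 to 16.46 on arrays numbered 2.

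Control probe sets differed between the numbers as well, and their part in the results was not tested. The difference between the 3' and 5' probe sets of ACTB, a sign of RNA degradation, was 1.55, 1.52, 1.25 and 1.65 on arrays numbered 1 and 1.94, 1.81, 1.84 and 1.5 on arrays numbered 2, higher in 3 of 4 pairs. For GAPDH the same difference lay between 0.264 and 0.325 on arrays numbered 1 and between 0.276 and 0.378 on arrays numbered 2. The mean of the spike-ins added before labelling (12 poly-A probe sets) was lower on the array numbered 2 in 4 of 4 pairs, by a mean of -0.24 (SD 0.14). The mean of the 9 hybridization control probe sets was higher in 4 of 4 pairs, by 0.16 (SD 0.13).

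**Figure D1:**
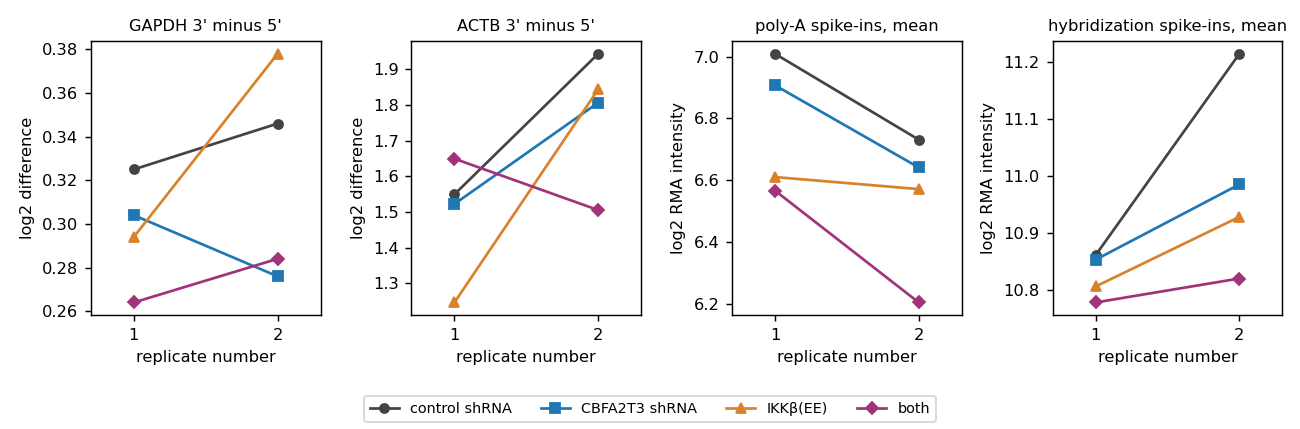
Control probe sets on each array, by replicate number (x axis) with 1 line per transfection; the y axes give a log2 difference or a mean log2 RMA intensity. The poly-A spike-ins fall and the hybridization spike-ins rise from number 1 to number 2 in 4 of 4 pairs, and the ACTB difference rises in 3 of 4.

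The 12 largest rises among called genes are of mixed function. CD9, a tetraspanin found on B-cell precursors, was 9.29, 10.44, 8.20 and 8.78 on arrays numbered 1 and 11.20, 11.87, 10.12 and 10.35 on arrays numbered 2. It rose in every pair, by 1.43 to 1.92, although the 2 sets of arrays overlap because the transfections also differ. The fitted rise was 1.71 (SE 0.10, 3.27-fold, limma adjusted p = 0.00847), and it was the largest among called genes. IL21R, the receptor chain for interleukin 21, rose by 1.63 (SE 0.18, limma adjusted p = 0.0116), from 4.99, 5.84, 7.72 and 7.54 to 6.47, 7.07, 9.10 and 9.96. GPR18, a receptor coupled to G proteins, rose by 1.62 (SE 0.14, limma adjusted p = 0.00951). CXCL8, the chemokine interleukin 8, rose by 1.57 (SE 0.16, limma adjusted p = 0.00979), with levels of 5.33, 6.18, 7.89 and 9.0 on arrays numbered 1 and 6.24, 7.99, 9.48 and 10.97 on those numbered 2. The arrays with IKKβ(EE) were the highest within each number. The amino acid oxidase IL4I1 rose by 1.40, the regulator of G-protein signalling RGS13 by 1.38, the galectin LGALS1 by 1.33 and the membrane-bending protein MTSS1 by 1.28. GOLIM4, a protein of the Golgi, rose by 1.48 from levels that were under log2 5 in the control pair, 2.97 and 3.95.

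The largest falls were smaller. CHRNA5, a subunit of nicotinic acetylcholine receptors, was 6.24, 5.99, 6.14 and 5.41 on arrays numbered 1 and 5.67, 5.02, 5.02 and 4.46 on arrays numbered 2, a fall of -0.90 (SE 0.10, limma adjusted p = 0.0106). It was lower in each pair, and the sets overlap through the control array numbered 2. The cytokine IL17D changed by -0.80, the protease FAM111B by -0.76, the Golgi protein GOLM1 by -0.72 and KCTD15 by -0.70. Of the 3 probe sets of KCTD15 2 were called lower, and they ranged from -0.70 to -0.16. TMED4, a cargo receptor of the secretory pathway, and DEF8 are uncertain. Their best probe sets fell by 0.63 and 0.60, but 2 of 4 probe sets of TMED4 and 1 of 2 of DEF8 went the other way.

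**Figure D2:**
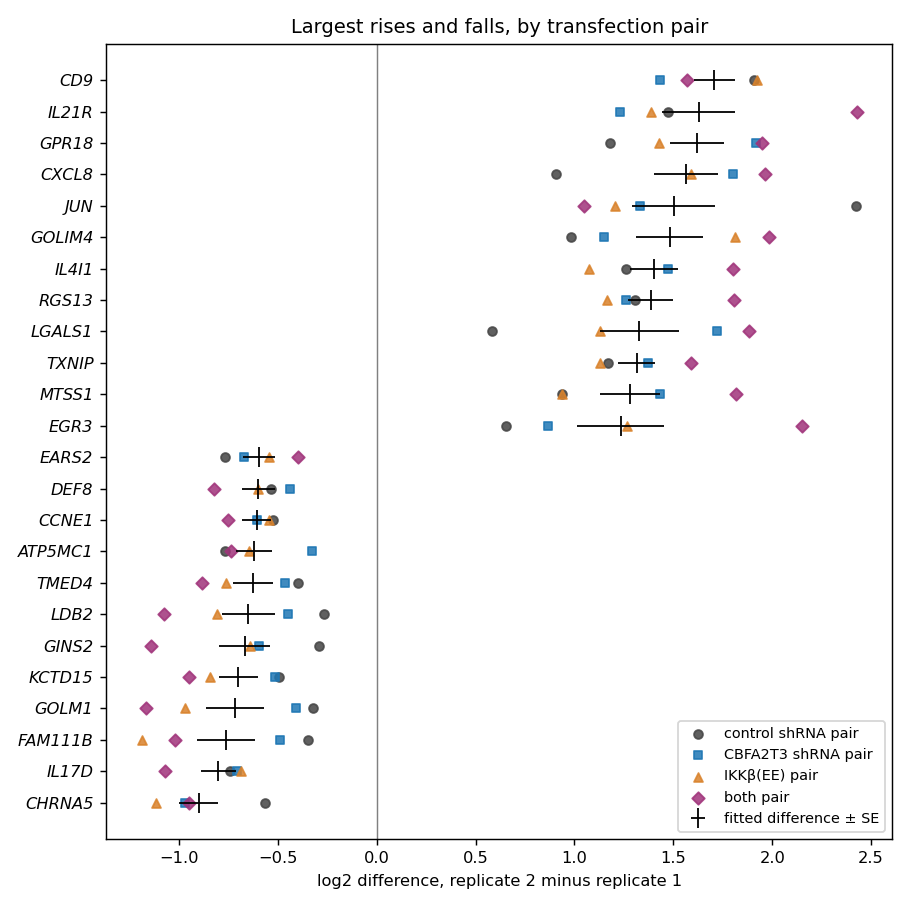
Difference between the arrays numbered 2 and 1 in each of the 4 transfections (points, x axis, log2) for the genes named by the largest rise or fall (y axis). The naming rule required 1 sign in 4 of 4 pairs; the fitted differences run from 1.71 for CD9 to -0.90 for CHRNA5.

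Members of the hypoxia response were called in 1 direction. Of 27 listed genes 23 were tested, 13 were called higher and 0 lower, against 5.33% higher among all tested genes. In 16 of the 23 the array numbered 2 was higher in all 4 pairs, against 19.2% of all genes. The list median was 0.55 and that of all tested genes -0.002. P4HA2, a collagen prolyl hydroxylase subunit, was 4.76, 5.54, 5.18 and 5.04 on arrays numbered 1 and 6.37, 6.18, 6.39 and 6.30 on arrays numbered 2. The sets do not overlap, and the rise was 1.18 (SE 0.14, limma adjusted p = 0.0134). BHLHE40, a clock and hypoxia repressor that is also an immediate early gene, rose from 6.33, 5.86, 7.78 and 8.37 to 7.35, 7.03, 8.40 and 9.88, by 1.08 (SE 0.13, limma adjusted p = 0.0139). VEGFA, the growth factor of blood vessels, was 7.22 to 7.88 on arrays numbered 1 and 8.06 to 8.99 on arrays numbered 2. The sets do not overlap in this probe set, its brightest, and the rise was 1.00 (SE 0.21, limma adjusted p = 0.033). Of its 2 tested probe sets the other was at 0.24 and was not called. P4HA1, the other catalytic prolyl hydroxylase subunit, rose by 0.76, the mitophagy receptors BNIP3L and BNIP3 by 0.71 and 0.63, and PDK1, which restrains pyruvate entry into the mitochondrion, by 0.57. ADM, the vasodilator adrenomedullin, differed by 0.72 without passing the test (SE 0.21, limma adjusted p = 0.076), with pair differences of 0.06 and 0.29 without and 1.11 and 1.40 with IKKβ(EE). ERO1A, an oxidase of the endoplasmic reticulum, was at -0.13 (limma adjusted p = 0.325). The call count was 7 without the control pair, 0 without the CBFA2T3 shRNA pair, 2 without the IKKβ(EE) pair and 5 without the pair with both.

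Of 19 tested genes of glycolysis 4 were called higher and 1 lower, against 5.33% and 3% of all genes, and the list median was 0.04. Without ENO2, which reached log2 5 only on arrays numbered 2, 3 of 18 were called higher. ALDOC, an aldolase, rose from 7.98, 8.42, 7.78 and 7.80 to 8.93, 9.14, 9.21 and 9.24, by 1.14 (SE 0.13, limma adjusted p = 0.0118), with no overlap between the sets. The enolase ENO2 rose by 0.88, and the glucose transporter SLC2A3 rose by 0.69. SLC2A3 was called in 1 of its 3 probe sets, which ranged from 0.41 to 0.69. GPI, glucose phosphate isomerase, was 10.36, 10.38, 10.04 and 10.24 on arrays numbered 1 and 9.88, 10.08, 9.34 and 9.54 on arrays numbered 2, a fall of -0.54 (SE 0.090, limma adjusted p = 0.0222). The abundant enzymes were nearer 0, with LDHA at 0.12 (limma adjusted p = 0.286), ENO1 at 0.04 and PGK1 at 0.28 (limma adjusted p = 0.051). Of the 7 tested targets of MondoA, a sensor of glucose phosphates, 4 were called higher and 0 lower, against 5.33% and 3% of all genes. TXNIP, a thioredoxin inhibitor that limits glucose uptake, was 10.03, 10.39, 9.96 and 9.96 on arrays numbered 1 and 11.20, 11.76, 11.08 and 11.54 on arrays numbered 2. The sets do not overlap, and the rise was 1.31 (SE 0.094, 2.49-fold, limma adjusted p = 0.0089). Its relative ARRDC4 rose by 1.21 (SE 0.21, limma adjusted p = 0.0256), from a range of 4.89 to 5.19 to one of 5.64 to 6.83. The MondoA call count was 2 without the control pair, 0 without the CBFA2T3 shRNA pair, 1 without the IKKβ(EE) pair and 2 without the pair with both.

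**Figure D3:**
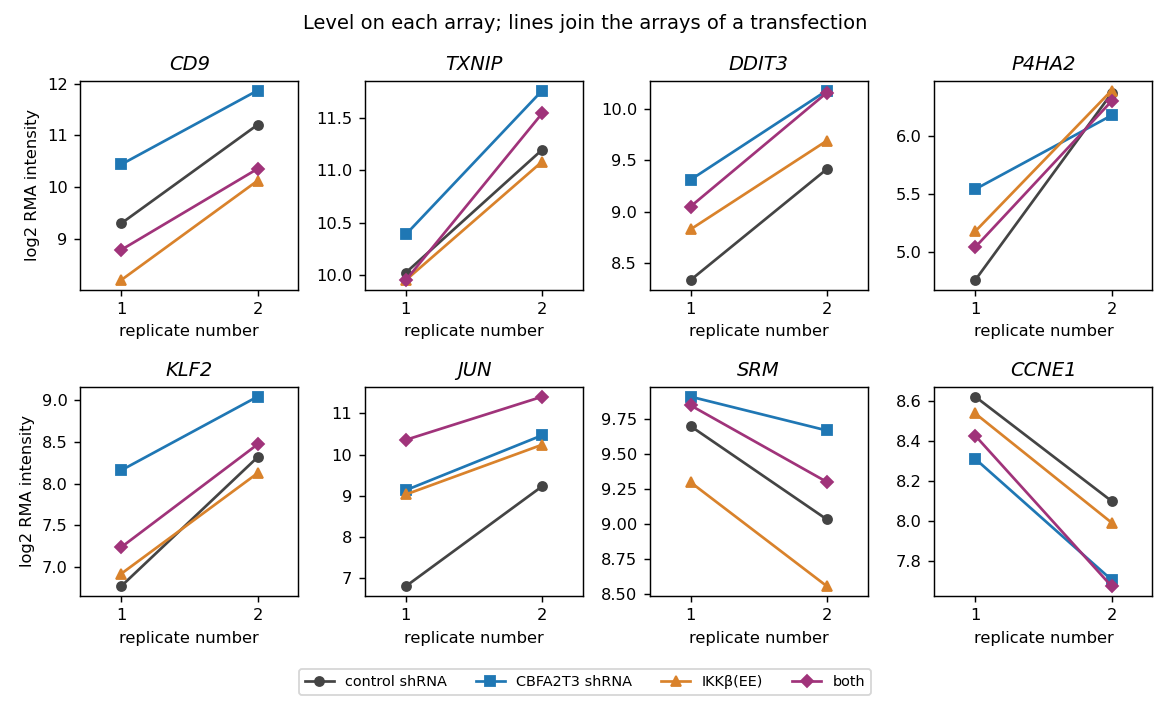
Log2 RMA intensity (y axis) of selected genes on the arrays numbered 1 and 2 (x axis), with 1 line per transfection. TXNIP and P4HA2 rise and CCNE1 falls with no overlap between the 4 arrays of each number.

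Of 27 tested ATF4 targets 10 were called higher and 1 lower, against 5.33% and 3% of all genes. The array numbered 2 was higher in all 4 pairs for 18 and lower in all 4 for 4, against 19.2% and 19.8% of all genes, and the median was 0.29. TRIB3, a pseudokinase that restrains ATF4 and AKT, was 9.10, 10.51, 9.38 and 9.56 on arrays numbered 1 and 10.40, 11.36, 10.60 and 11.07 on arrays numbered 2, a rise of 1.22 (SE 0.11, limma adjusted p = 0.00951). The sets overlap narrowly. DDIT3, the stress factor CHOP, rose from 8.33, 9.31, 8.83 and 9.05 to 9.41, 10.18, 9.69 and 10.16, by 0.98 (SE 0.078, limma adjusted p = 0.00951), and did not overlap. PPP1R15A, which restores translation after stress, rose by 0.88, ATF3 by 0.76 and the leucine sensor SESN2 by 0.51. The enzymes PSAT1, MTHFD2 and ASNS were named after their values were seen. PSAT1, of serine synthesis, was at -0.01, MTHFD2, of the mitochondrial folate cycle, at 0.02, and ASNS, asparagine synthetase, at 0.30 (limma adjusted p = 0.0997), while ALDH18A1, of proline synthesis, fell by 0.32 (limma adjusted p = 0.0347). The count of called rises was 4 without the control pair, 0 without the CBFA2T3 shRNA pair, 4 without the IKKβ(EE) pair and 3 without the pair with both.

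Other protein stress lists held 1 called rise. Among 26 tested chaperones and enzymes of the endoplasmic reticulum 1 was called higher and 1 lower, and the median was -0.00. These shares, 3.85% each, are near the 5.33% and 3% of all genes. DNAJB9, a cochaperone of the reticulum, rose by 0.65 and calreticulin (CALR) fell by 0.36. Of 19 tested heat shock chaperones 0 were called higher and 4 lower, against 3% lower among all genes. FKBP4, a cochaperone of HSP90, was 8.40, 8.19, 8.0 and 8.04 on arrays numbered 1 and 7.88, 7.70, 7.40 and 7.48 on arrays numbered 2. These sets do not overlap, and the fall was -0.54 (SE 0.068, limma adjusted p = 0.0137). HSPE1, the mitochondrial chaperonin cofactor, fell by 0.51 from a range of 11.70 to 11.95 to one of 11.19 to 11.42, and STIP1 fell by 0.50.

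FOXO and quiescence genes held 14 called rises among 23 tested and 0 called falls, against 5.33% and 3% of all genes. The array numbered 2 was higher in all 4 pairs for 18 and lower in all for 1, and the median was 0.33. KLF2, a factor of lymphocyte quiescence, was 6.77, 8.16, 6.92 and 7.24 on arrays numbered 1 and 8.31, 9.04, 8.12 and 8.47 on arrays numbered 2, a rise of 1.22 (SE 0.11, limma adjusted p = 0.00951), with a narrow overlap. TSC22D3, a target of glucocorticoids and FOXO3, rose by 0.99 in its brightest probe set, and its probe sets ranged from 0.27 to 0.99. YPEL5 rose by 0.81, the antiproliferative gene BTG1 by 0.71, CCNG2, a cyclin of resting cells, by 0.51 and the CDK inhibitor CDKN1B by 0.29. The count of called members was 9 without the control pair, 0 without the CBFA2T3 shRNA pair, 5 without the IKKβ(EE) pair and 7 without the pair with both.

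Of 26 tested immediate early genes 12 were called higher and 0 lower, against 5.33% and 3% of all genes, with a median of 0.50. EGR3 and NR4A2 passed the floor of log2 5 only through arrays of 1 number. Without them 11 of 24 were called higher and the median was 0.45. JUN, a subunit of AP-1, was 6.81, 9.14, 9.04 and 10.36 on arrays numbered 1 and 9.23, 10.47, 10.24 and 11.41 on arrays numbered 2, a rise of 1.5 (SE 0.21, limma adjusted p = 0.017). The control array numbered 1 was the lowest of the 8, and its pair differed the most. EGR3 rose by 1.23 and FOS by 0.90, while EGR1 was at 0.55 without passing the test (SE 0.31, limma adjusted p = 0.272), lower in the control pair and higher in the other 3. The pair medians of this list were 0.24 for control, 0.29 for CBFA2T3 shRNA, 0.49 for IKKβ(EE) and 0.83 for both. Without the control, CBFA2T3 shRNA, IKKβ(EE) or both pair the call count was 10, 0, 3 and 4.

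NF-κB targets, the genes that IKKβ activates, had 9 of 41 tested members called higher and 0 lower, against 5.33% and 3% of all genes, with a median of 0.40. Their pair medians were 0.05 for control, 0.19 for CBFA2T3 shRNA, 0.35 for IKKβ(EE) and 0.83 for both. RELB, an NF-κB subunit, was 5.01, 4.88, 6.79 and 6.70 on arrays numbered 1 and 5.53, 5.85, 7.66 and 7.87 on arrays numbered 2, a rise of 0.89 (SE 0.11, limma adjusted p = 0.0135). The apoptosis inhibitor BCL2A1 rose by 0.73 and TNIP1, which restrains NF-κB, by 0.65. BCL2A1 was under log2 5 in the control and CBFA2T3 shRNA pairs, at 2.85 to 4.41. TNIP1 was called in 1 of its 2 probe sets, with the other at 0.30. NFKBIA, the inhibitor IκBα, differed by 0.00 in the control pair and by 0.75 in the pair with both, and did not pass the test (0.31, SE 0.12, limma adjusted p = 0.141). LTB, lymphotoxin β, was at -0.50 (SE 0.14, limma adjusted p = 0.0657). Without the control, CBFA2T3 shRNA, IKKβ(EE) or both pair the call count was 5, 0, 1 and 3. Some genes stand on more than 1 list, so the list counts are not independent.

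**Figure D4:**
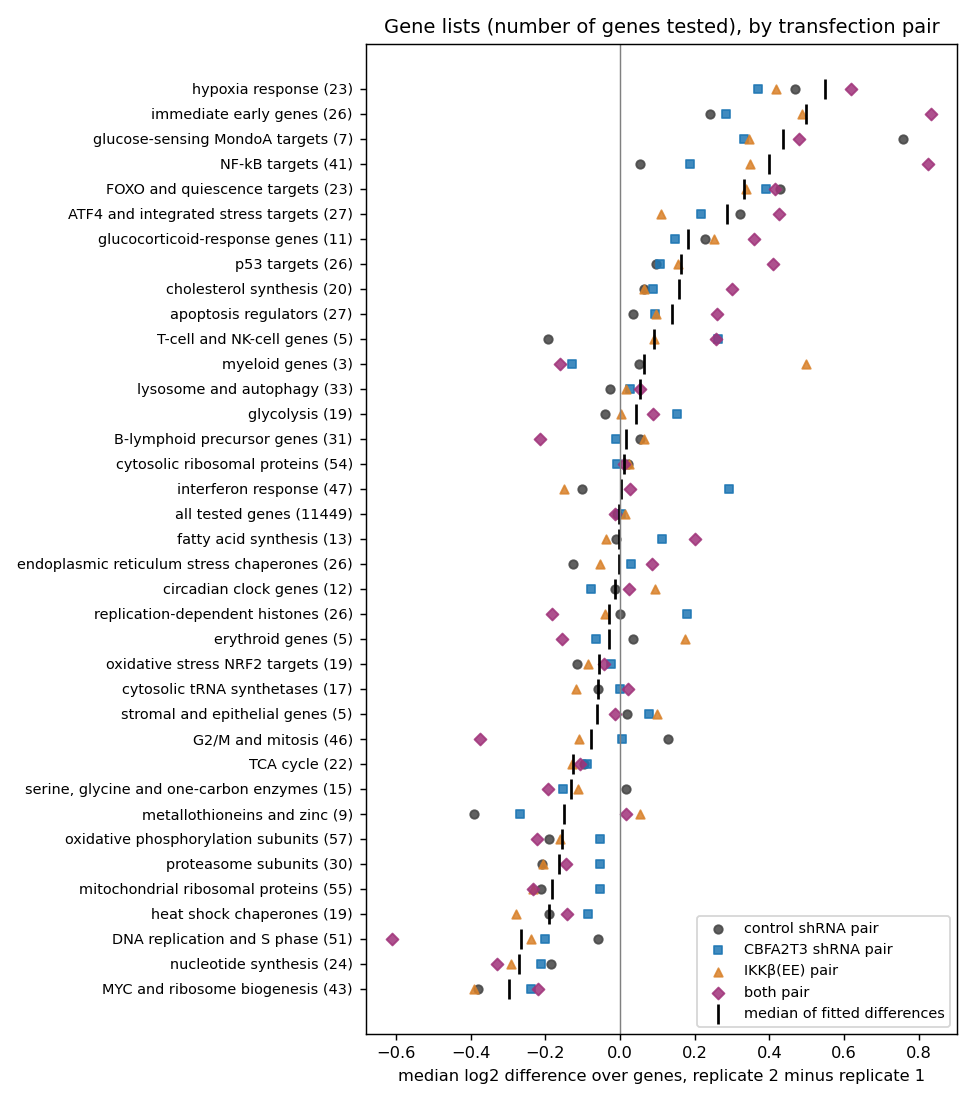
Median log2 difference between the arrays numbered 2 and 1 of the members of each gene list (y axis), in each of the 4 transfections (points, x axis). The hypoxia medians lie between 0.37 and 0.62 in the 4 pairs, whereas the NF-κB medians run from 0.05 to 0.83 and those of G2/M and mitosis from 0.13 to -0.38.

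Of 43 tested genes of MYC and ribosome biogenesis 18 were called lower and 1 higher, against 3% lower among all tested genes, and 35 were lower in all 4 pairs, against 19.8%. The list median was -0.30. SRM, spermidine synthase, was 9.70, 9.91, 9.30 and 9.85 on arrays numbered 1 and 9.03, 9.67, 8.56 and 9.30 on arrays numbered 2, a fall of -0.55 (SE 0.096, limma adjusted p = 0.0253). Each pair was lower, and the sets overlap. MRTO4, an assembly factor of the large ribosomal subunit, changed from 10.40, 10.37, 10.21 and 10.47 to 9.86, 10.10, 9.46 and 9.99, a fall of -0.51 (SE 0.090, limma adjusted p = 0.0258). The nucleolar protein NOP16 fell by 0.51, although 1 of its 3 probe sets went the other way, and ODC1, ornithine decarboxylase, fell by 0.39. The called rise was MXD1, a MYC antagonist, at 0.57 (SE 0.079, limma adjusted p = 0.0168). MYC itself was lower in 4 of 4 pairs without passing the test (-0.25, SE 0.086, limma adjusted p = 0.105). In each of the 4 settings that left out 1 pair the count of called falls was 0, while the list median stayed between -0.26 and -0.33.

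Of 54 tested cytosolic ribosomal proteins and their listed partners 0 were called by limma, 0 had an unadjusted p under 0.05, and the median was 0.01. The extreme values of the list were 0.14 for EEF2, a translation factor listed with them (limma adjusted p = 0.203), and -0.11 for RPL8 (limma adjusted p = 0.340).

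Promoters of 5 called members that hold a motif are printed to show where the letters known to be bound by MYC, HIF and E2F lie. They were taken in order of the size of the difference among called list members with a match in the promoter table, and larger differences elsewhere are not shown. The sequences are from RefSeq on GRCh38.p14, each from 250 bases before to 50 bases after the start of the transcript, 5′ to 3′ on the strand of the gene. Capitals mark every match of the motif on either strand. The motif is CACGTG for SRM (chr1:11059969-11060268, minus strand) and MRTO4 (chr1:19251555-19251854, plus strand). It is ACGTG, which lies within CACGTG, for BHLHE40 (chr3:4979187-4979486, plus strand) and P4HA1 (chr10:73096817-73097116, minus strand). It is TTTCNCGC for GINS2 (chr16:85688905-85689204, minus strand), a replication gene described further on.
SRM: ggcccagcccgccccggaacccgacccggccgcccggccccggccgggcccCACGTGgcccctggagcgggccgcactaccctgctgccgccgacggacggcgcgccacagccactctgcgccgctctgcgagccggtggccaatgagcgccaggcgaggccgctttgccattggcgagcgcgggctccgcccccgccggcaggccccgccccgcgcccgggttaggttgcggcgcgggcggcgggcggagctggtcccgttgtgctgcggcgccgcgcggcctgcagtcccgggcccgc
MRTO4: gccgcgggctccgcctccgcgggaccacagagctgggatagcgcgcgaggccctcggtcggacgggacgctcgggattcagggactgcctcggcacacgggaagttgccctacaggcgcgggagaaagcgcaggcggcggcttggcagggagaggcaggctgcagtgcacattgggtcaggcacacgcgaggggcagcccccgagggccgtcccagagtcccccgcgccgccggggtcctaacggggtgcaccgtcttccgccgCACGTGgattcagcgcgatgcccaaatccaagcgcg
BHLHE40: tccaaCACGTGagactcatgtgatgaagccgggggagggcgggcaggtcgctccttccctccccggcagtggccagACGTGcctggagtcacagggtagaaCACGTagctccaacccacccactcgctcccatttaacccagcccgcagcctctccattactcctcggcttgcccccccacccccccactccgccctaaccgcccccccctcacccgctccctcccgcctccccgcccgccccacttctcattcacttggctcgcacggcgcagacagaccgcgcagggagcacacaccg
P4HA1: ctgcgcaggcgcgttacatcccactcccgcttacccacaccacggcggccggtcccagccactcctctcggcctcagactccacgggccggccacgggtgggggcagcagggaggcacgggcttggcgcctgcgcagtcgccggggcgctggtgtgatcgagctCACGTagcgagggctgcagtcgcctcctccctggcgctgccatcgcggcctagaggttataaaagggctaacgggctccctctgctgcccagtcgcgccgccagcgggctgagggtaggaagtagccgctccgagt
GINS2: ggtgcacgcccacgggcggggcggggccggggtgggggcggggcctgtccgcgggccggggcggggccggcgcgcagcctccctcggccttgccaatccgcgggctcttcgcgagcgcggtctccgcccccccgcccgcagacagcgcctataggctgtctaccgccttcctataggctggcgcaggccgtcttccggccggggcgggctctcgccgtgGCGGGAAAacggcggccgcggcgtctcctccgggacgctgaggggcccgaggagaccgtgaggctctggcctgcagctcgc

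Motifs and printed examples were chosen with the matches known, so the shares describe the lists. CACGTG was found on either strand in 16 of 35 genes of MYC and ribosome biogenesis with a promoter here (45.7%), against 12.7% of tested genes and 8.77% of all genes in the promoter table. ACGTG was found in 15 of 19 hypoxia genes (78.9%), against 32.3% of tested genes and 24.9% of all genes. The list that went the other way held these letters too, with ACGTG in 22 of 35 genes of MYC and ribosome biogenesis (62.9%). CACGTG in turn was found in 7 of 19 hypoxia genes (36.8%), and in 5 of the 11 called ones. TTTCNCGC was found in 15 of 44 genes of DNA replication (34.1%), against 6.05% of tested genes and 3.64% of all genes, and among its called members in 2 of 8. TGATGNAA, a form of the ATF4 element, was found in 11 of 22 ATF4 targets (50%) against 2.76% of tested genes, and in 1 of 8 called members. A match describes these letters in these windows, not a bound site.

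DNA replication and S phase had 8 of 51 tested genes called lower and 0 higher, against 3% lower among all genes. In 30 of the 51 the array numbered 2 was lower in all 4 pairs, against 19.8% of all genes, and the median was -0.27. GINS2, a subunit of the replicative helicase, was 10.48, 10.13, 10.21 and 10.04 on arrays numbered 1 and 10.19, 9.54, 9.56 and 8.90 on arrays numbered 2, a fall of -0.67 (SE 0.13, limma adjusted p = 0.0298). The pair with both differed the most. Of the 3 probe sets of GINS2 2 were called lower, and they ranged from -0.67 to -0.17. CCNE1, the cyclin of S-phase entry, was 8.62, 8.31, 8.54 and 8.43 on arrays numbered 1 and 8.10, 7.70, 7.99 and 7.67 on arrays numbered 2. The sets do not overlap, and the fall was -0.61 (SE 0.073, limma adjusted p = 0.013). The thymidine kinase TK1 fell by 0.50, MCM10 by 0.49, the origin licensing factor CDC6 by 0.44 and the flap endonuclease FEN1 by 0.38. RRM2, of ribonucleotide reductase, was at -0.29 (limma adjusted p = 0.114) and PCNA, the replication clamp, at -0.17 (limma adjusted p = 0.218). The pair medians ran from -0.06 for control through -0.20 for CBFA2T3 shRNA and -0.24 for IKKβ(EE) to -0.61 for both. Without the control, CBFA2T3 shRNA, IKKβ(EE) or both pair the count of called falls was 5, 0, 0 and 1.

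Of 46 tested genes of G2/M and mitosis limma called 0, with 1 at an unadjusted p under 0.05, and the median was -0.08. In 5 of the 46 (10.9%) the array numbered 2 was lower in all 4 pairs, against 19.8% of all genes. The pair medians were 0.13, 0.00, -0.11 and -0.38 in the order of the transfections. BIRC5, survivin, had the lowest value of the list at -0.27 in its brightest probe set (SE 0.096, limma adjusted p = 0.113). Of its 4 probe sets 1 other was called lower, and they ranged from -0.38 to -0.19. Replication-dependent histones had 3 of 26 called higher (11.5%), against 5.33% of all genes. They were H2AC6 at 0.51, H2BC21 at 0.43 and H4C11 at 0.40, 3 sequences that have near-identical family members. In bulk RNA, fewer cells in a phase of the cycle and less RNA per cell cannot be told apart.

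Nucleotide synthesis had 6 of 24 tested genes called lower and 0 higher, against 3% lower among all genes. In 17 the array numbered 2 was lower in all 4 pairs, against 19.8% of all genes, and the median was -0.27. NME1, a nucleoside diphosphate kinase, was 12.84, 12.71, 12.60 and 12.74 on arrays numbered 1 and 12.22, 12.41, 12.01 and 12.29 on arrays numbered 2. The sets do not overlap, and the fall was -0.49 (SE 0.080, limma adjusted p = 0.0222). DCTPP1, a dCTP pyrophosphatase, fell by 0.53, PFAS, of purine synthesis, by 0.47 and UMPS, of pyrimidine synthesis, by 0.43. In each setting that left out 1 pair the count was 0.

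Of 55 tested mitochondrial ribosomal proteins 7 were called lower and 0 higher, against 3% lower among all genes. In 37 of them the array numbered 2 was lower in all 4 pairs, against 19.8% of all genes, and the median was -0.18. MRPL12 fell by 0.45, MRPS34 by 0.43 and MRPS12 by 0.43, and the count was 0 in each setting that left out 1 pair. The 4 probe sets of MRPS12 ranged from -0.75 to -0.08, with 3 called lower, and MRPL12 was called in 1 of its 2. Of 57 subunits of oxidative phosphorylation 2 were called lower, a share near the 3% of all genes. In this list 38 were lower in all 4 pairs, against 19.8% of all genes, and the median was -0.16. ATP5MC1, a ring subunit of ATP synthase, was 11.31, 10.66, 10.96 and 10.77 on arrays numbered 1 and 10.54, 10.34, 10.32 and 10.04 on arrays numbered 2, a fall of -0.62 (SE 0.092, limma adjusted p = 0.0189). The other was NDUFB7 of complex I, at -0.34 (limma adjusted p = 0.0438). Of 30 proteasome subunits 2 were called lower, PSMC3 at -0.46 and PSMD3 at -0.37, against 3% of all genes. Lower in all 4 pairs were 24, against 19.8% of all genes. Of 22 genes of the citric acid cycle 2 were called lower, against 3% of all genes. They were IDH3A at -0.42 and DLAT, of pyruvate dehydrogenase, at -0.35.

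**Figure D5:**
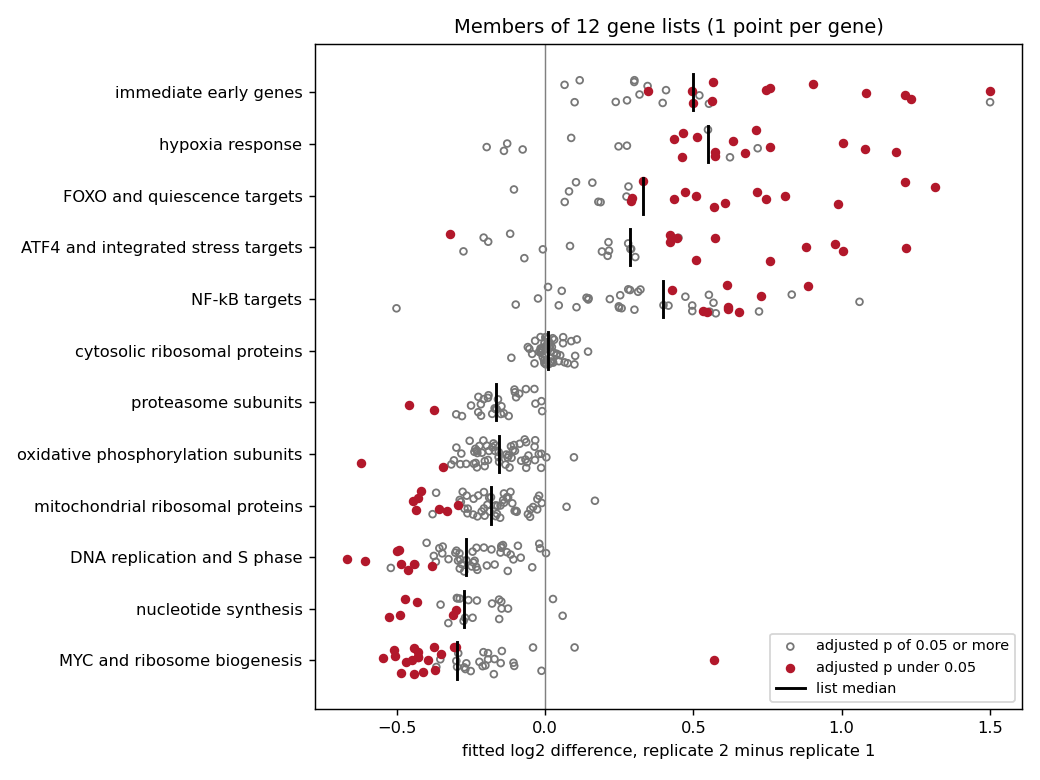
Fitted log2 difference between the arrays numbered 2 and 1 (x axis) of each tested member of 12 gene lists (y axis), filled where the limma adjusted p was under 0.05, with the list median as a bar. Members of the immediate early, hypoxia, quiescence, ATF4 and NF-κB lists reach past 1 on the right. Of 43 members of MYC and ribosome biogenesis 41 lie left of 0, with a list median of -0.30, and cytosolic ribosomal proteins cluster at 0.01.

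The remaining lists were counted in the same way, against 5.33% of all tested genes called higher and 3% called lower. Cholesterol synthesis had 1 of 20 called higher, the sterol carrier STARD4 at 0.70, and a median of 0.16. INSIG1, a sterol sensor, was at 0.23 (limma adjusted p = 0.132). Targets of p53 had 5 of 26 called higher and a median of 0.16, led by TP53INP1 and BTG1 at 0.71, and MDM2, the ligase that degrades p53, was at 0.38 (limma adjusted p = 0.0511). Of 27 apoptosis genes 4 were called higher, among them HRK, a BH3-only gene, at 0.79, BCL2A1 at 0.73 and CFLAR at 0.62. Of the 12 probe sets of CFLAR 3 were called higher and 1 went the other way. Interferon response genes had 3 of 47 called higher, ISG20, IFIH1 and DDX60, a share near that of all genes, and a median of 0.00. In the glucocorticoid list 5 of 11 were called higher and 0 lower, with a median of 0.18, among them the kinase SGK1 at 1.05 and DDIT4, an mTORC1 inhibitor, at 0.57. Of 19 targets of NRF2, the factor of oxidative stress, 1 was called higher, the cystine transporter SLC7A11 at 0.45, which is also an ATF4 target and had 1 of 3 probe sets of the other sign. Among 17 cytosolic tRNA synthetases 2 were called lower, VARS1 at -0.44 and FARSB at -0.31. Each was called in 1 of its 2 probe sets, with the other at -0.05 for VARS1 and -0.02 for FARSB. Among 33 lysosome and autophagy genes 2 were called higher, WIPI1 at 0.47 and MAP1LC3B, which coats autophagosomes, at 0.42.

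Of 16 listed T-cell and NK-cell genes 5 were tested and 10 were under the floor, among them CD3D at 4.73 and CD3E at 4.23. The list's summed level was 8.54 to 9.20 on arrays numbered 1 and 8.43 to 9.84 on arrays numbered 2. GATA3, a T-cell factor also made in other cells, was the 1 called member, against 5.33% called higher among all genes. It rose by 0.86 (SE 0.15, limma adjusted p = 0.0262), while 1 of the 5 tested genes was lower in all 4 pairs. Of 14 myeloid genes 3 were tested, with MPO, LYZ and CD14 under the floor at 4.60, 3.42 and 3.32. The summed myeloid level was 10.27 to 10.60 on arrays numbered 1 and 9.79 to 10.51 on arrays numbered 2. ITGAM, an integrin, was the 1 called member and rose by 0.65 (SE 0.14, limma adjusted p = 0.0362). Of the 3 tested myeloid genes 1 was lower in all 4 pairs, at -0.30. For the erythroid list (5 of 12 tested) and the stromal and epithelial list (5 of 15 tested) limma called 0 members, with 0 and 1 at an unadjusted p under 0.05. Their summed levels were 8.41 to 8.61 and 8.94 to 9.21 on arrays numbered 1 and 8.47 to 8.62 and 8.96 to 9.35 on arrays numbered 2.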

How the data were processed

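Total RNA was extracted with a silica column kit and labelled with biotin, per the labels' protocols. The deposited table holds log2 probe set intensities that the authors made with RMA, per the submitters' processing notes. For the RMA version and for filters the entry is "not given in the sources used here". RMA sets all arrays to 1 distribution and so removes a shift of most transcripts in 1 direction. The values reach 14.6, more than a natural log of a 16-bit maximum allows (11.1), so base 2 was taken.

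Control probe sets (62) and 30132 probe sets under log2 5 on all but at most 1 array were left out of 54675. GEO's platform annotation named 41097 probe sets by 1 symbol, 1801 by several, and leaves 11777 unnamed here. limma 3.58.1 in R 4.3.3 fitted transfection and replicate number (3 residual and 4.36 prior degrees of freedom), two-sided, adjusted over all 24481. Arrays were paired by the number in their titles, and the labels do not say that equal numbers shared a day or a culture. The replicate differences correlated across probe sets in all 6 combinations of 2 pairs (0.344 to 0.577). The replicate term is fitted to these same differences, so their correlation is not separate support for the pairing. An exact sign-flip test of 4 pairs cannot go below a p of 0.125, and array number limits the precision. Members, gene lists and motifs were chosen with earlier results of these data known. The naming rule took the 12 largest rises and falls among called genes of 1 sign in 4 pairs, and up to 3 called members per list and direction, or the extreme members where none was called; further members were named after their values were seen. In simulated data with 200 of 24481 probe sets changed, the replicate fit recovered 35.8% of changes of log2 0.5 and 82.5% of log2 1 with 3.35% false calls, and the IKKβ(EE) dependence test recovered 0% of both. Alternatives were the floor, moderation, array weights, normalization, probe set choice, the unpaired fit and leaving out each pair. Python 3.11.15 with pandas 2.3.3 and matplotlib 3.10.9 was used for promoters and figures.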

Additional observations from a re-analysis of the deposited data

Results flagged for a closer look

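In 5 of 135 checks over the 4 pairs, 1 pair stood far from the other 3 (chance alone gives about 1 in 20). The pair with both stood apart for the median of cholesterol synthesis genes, 0.30 against 0.06 to 0.09, and for STARD4, 1.34 against 0.40 to 0.54. The same pair stood apart for IL17D, a cytokine, at -1.07, and for the thymidine kinase TK1, at -0.96. The CBFA2T3 shRNA pair stood apart for the median of mitochondrial ribosomal proteins, -0.06, the others lying from -0.23 to -0.21.

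For some lists the median went one way in both pairs with a construct and the other way in both pairs without it. These differences were not tested. With minus without the CBFA2T3 shRNA, the difference of the medians was 0.18 for fatty acid synthesis, 0.10 for cytosolic tRNA synthetases, 0.15 for chaperones of the endoplasmic reticulum and 0.29 for interferon response genes. It was -0.17 for B-lymphoid precursor genes, -0.42 for the 3 myeloid genes and -0.21 for the 5 erythroid genes. With minus without IKKβ(EE), it was 0.36 for metallothioneins and zinc genes, -0.31 for G2/M and mitosis, -0.20 for replication-dependent histones and 0.10 for circadian clock genes.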

How the results depend on the processing

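The 2180 called probe sets (1273 higher, 907 lower) became 884 (628, 256) with no floor, 3774 (1959, 1815) with trend and robust moderation and 1210 (731, 479) with 1 probe set per gene. Without the pairing, that is with no replicate block over the transfections and 4 arrays against 4, limma called 0, with 2995 at an unadjusted p under 0.05. Leaving out 1 pair gave 0 to 818, with 0 to 589 higher and 0 to 229 lower. Of 86 named called probe sets 57 were called with no floor, 84 with array weights, 82 with cyclic loess and 51, 0, 15 and 34 without the control, CBFA2T3 shRNA, IKKβ(EE) and both pair, and 0 changed sign under these alternatives. The dependence on IKKβ(EE) gave 2 calls with 1 probe set per gene and 0 to 55 when 1 pair was left out, 55 without the IKKβ(EE) pair. The IKBKB probe set of the transfected kinase turned from -0.18 to 0.0364 without the CBFA2T3 shRNA pair, in a range of -0.4145 to 0.0364 over the left-out pairs. The causes were not tested. Genes near log2 5 limit the folds: 87 genes reached the floor only on arrays numbered 2, 18 of them called, and 46 only on arrays numbered 1, 1 of them called.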

Other observations

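The genes with the smallest p for a dependence of the replicate difference on IKKβ(EE) were chosen after their values were seen, and none passed. IGF1, insulin-like growth factor 1, differed between numbers 2 and 1 by 0.03 and -0.08 in the control and CBFA2T3 shRNA pairs and by 1.78 and 1.92 in the IKKβ(EE) and both pairs (difference 1.87, SE 0.15, limma adjusted p = 0.120). DMD, dystrophin, had a difference of 2.16 (SE 0.19, limma adjusted p = 0.120). PFKFB4, a glycolytic regulator of the hypoxia list, went the other way, with 1.18 and 1.23 in the pairs without and 0.13 and -0.03 in the pairs with IKKβ(EE) (limma adjusted p = 0.430).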
